A study of Mus musculus with 12 samples.

Results

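The genes described here encode 10 enzymes of glycolysis, namely *Hk2*, *Gpi1*, *Aldoa*, *Tpi1*, *Gapdh*, *Pgk1*, *Pgam1*, *Eno1*, *Pkm* and *Ldha*. They were looked up by gene symbol in 2 deposited tables. One table holds the 2906 genes called lower in tdTomato+ than in tdTomato- ILC2s, and the other holds the 533 genes called higher. Of the 10 genes, 7 were in the lower table, 0 were in the higher table and 3 were in neither. The listed genes were *Gapdh*, *Ldha*, *Gpi1*, *Aldoa*, *Pkm*, *Eno1* and *Pgk1*, and the absent genes were *Tpi1*, *Pgam1* and *Hk2*. By comparison, the lower table held 13.2% of the 21951 protein-coding genes in the GENCODE M21 annotation, and the higher table held 2.31%.

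RNA was sequenced from ILC2s, innate lymphocytes that secrete type 2 cytokines, sorted from the lungs of male mice of the genotype TIGIT-Cre-ERT2:Rosa26-LSL-tdTomato after 19 days of papain and tamoxifen. Papain, a protease given into the nose, is the allergen, and both populations came from treated mice of this 1 genotype. Tamoxifen activates a recombinase driven by the *Tigit* locus, so tdTomato marks cells that expressed *Tigit* while the drug was present. There were 4 libraries of each population with 100 cells per library. Chromatin accessibility (ATAC-seq, 2 libraries per population) was not used here. The ages of the mice, whether both populations came from the same animals, and which of the libraries entered the comparison are not given in the sources used here.

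Glycolysis splits glucose into pyruvate in the cytosol and yields ATP and NADH, and lactate dehydrogenase turns pyruvate into lactate while NADH is oxidized again. Lymphocytes raise this pathway when they are activated and divide, partly through the transcription factors HIF-1α and MYC. In ILC2s, as in T cells, glucose use is part of the response to activating cytokines. *Gapdh* and other genes of the pathway are also widely used as reference genes for RNA measurements.

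The tables give each gene 1 average log2 CPM, the log2 of reads of the gene scaled to a common library total (CPM), taken over the libraries of both populations, and no value of a single library. Every level below is such an average, with no SD or n, and no test between genes or populations could be made from it. Without the fold change, which was not used here, the average cannot be divided between tdTomato- and tdTomato+ ILC2s. The depth of each library is unknown. All listed genes, lower and higher, had an average log2 CPM of at least 5.00, so a gene missing from both tables may have been too low or may not have passed the comparison. The limit on the comparison itself is not stated in the sources used here. CPM are shares of each library, and in such samples fewer cells of a type and less RNA per cell cannot be told apart. The paper reports that non-coding transcripts, such as major satellite repeats, outweighed protein-coding ones in tdTomato+ ILC2s. All 2906 lower genes were protein-coding, and the higher genes reached an average log2 CPM of 16.5. Whether the enzyme genes changed beyond such a shift in shares was not tested.

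The upstream promoter sequences of 5 enzyme genes are shown here because they hold, or lack, the letters ACGTG, the core of the hypoxia response element to which HIF-1 binds. *Ldha*, *Pgk1*, *Aldoa* and *Gapdh* represent the lower genes and *Hk2* the genes in neither table. Each sequence comprises the 250 bases before a RefSeq start in GRCm38.p6, written 5′ to 3′ on the strand of the gene, and overlaps 0 bases of annotated exon. ACGTG on either strand is in capitals.
*Ldha*, chr7:46845554-46845803, plus strand: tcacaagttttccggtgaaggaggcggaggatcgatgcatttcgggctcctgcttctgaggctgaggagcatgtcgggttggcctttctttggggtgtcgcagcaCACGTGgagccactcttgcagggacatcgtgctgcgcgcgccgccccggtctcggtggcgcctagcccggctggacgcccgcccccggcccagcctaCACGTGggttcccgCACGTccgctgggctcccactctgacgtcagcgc
*Pgk1*, chrX:106186850-106187099, plus strand: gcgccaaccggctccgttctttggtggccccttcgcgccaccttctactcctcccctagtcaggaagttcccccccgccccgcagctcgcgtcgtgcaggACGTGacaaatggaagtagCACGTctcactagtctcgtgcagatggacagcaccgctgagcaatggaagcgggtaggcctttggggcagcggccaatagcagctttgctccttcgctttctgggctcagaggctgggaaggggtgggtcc
*Aldoa*, chr7:126799255-126799504, minus strand: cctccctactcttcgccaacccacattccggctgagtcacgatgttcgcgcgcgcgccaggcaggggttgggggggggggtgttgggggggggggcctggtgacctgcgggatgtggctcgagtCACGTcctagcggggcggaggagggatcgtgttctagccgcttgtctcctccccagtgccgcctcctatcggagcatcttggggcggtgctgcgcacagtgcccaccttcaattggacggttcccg
*Gapdh*, chr6:125165774-125166023, minus strand: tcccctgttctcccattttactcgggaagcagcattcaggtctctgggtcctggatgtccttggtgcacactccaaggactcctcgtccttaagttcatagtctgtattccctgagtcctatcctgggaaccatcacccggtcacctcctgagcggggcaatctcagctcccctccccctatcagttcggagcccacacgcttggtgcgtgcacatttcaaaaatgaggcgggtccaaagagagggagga
*Hk2*, chr6:82774455-82774704, minus strand: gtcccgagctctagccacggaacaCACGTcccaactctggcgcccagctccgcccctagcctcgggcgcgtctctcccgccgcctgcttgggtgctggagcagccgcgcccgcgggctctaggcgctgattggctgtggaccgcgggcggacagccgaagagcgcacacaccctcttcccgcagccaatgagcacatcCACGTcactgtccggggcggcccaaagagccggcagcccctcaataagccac

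*Ldha* held the most matches of the 10 genes, with 5 matches in this window. Positions are those of the first base of a match. The sequence CACGTG, an E-box that MYC and HIF family proteins recognize, occurred at 2 places, 145 and 48 bases before the start, and each is read as ACGTG on both strands. The remaining match lay 34 bases before the start. *Pgk1* had 2 matches, 150 and 131 bases before the start and on opposite strands. *Hk2* had matches 226 and 52 bases before the start, and *Aldoa* had 1 match 126 bases before this start. The only match of *Gapdh* was 42 bases after the start, outside the bases shown. In windows not shown, *Pgam1* had 1 match 114 bases before its start, and *Pkm* had 2, of which 1 lay 75 bases before and 1 lay 8 bases after a start.

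**Figure D1:**
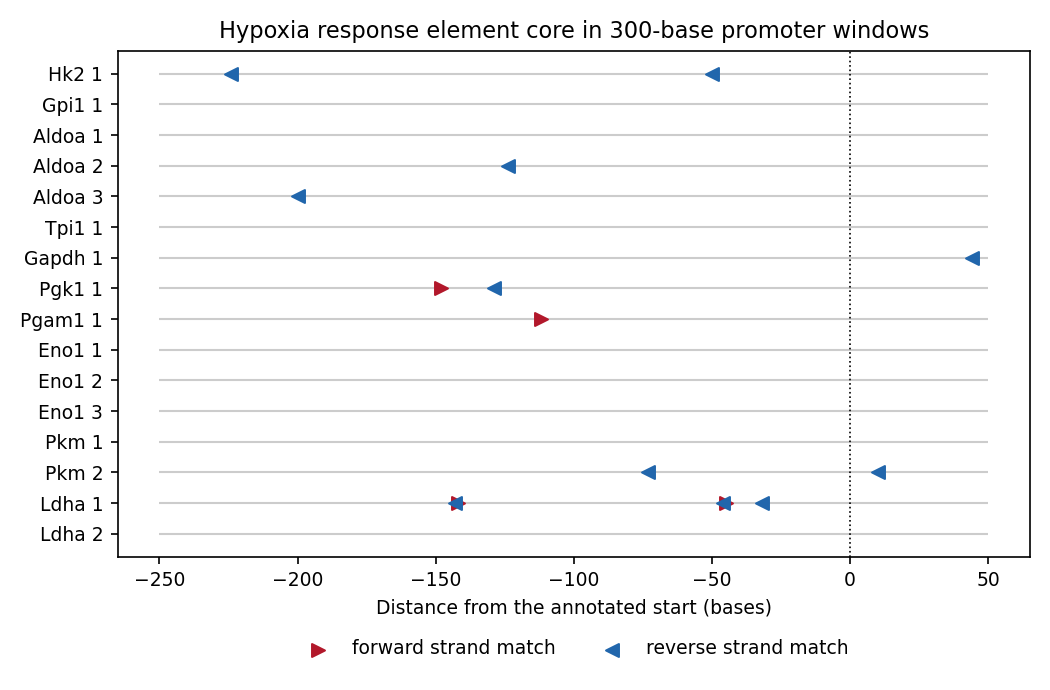
Matches to the 5-letter core of the hypoxia response element in 16 promoter windows of the 10 glycolytic enzyme genes, plotted by distance from the annotated start in bases. Each line is 1 window, numbered within its gene, and arrowheads point right for forward and left for reverse matches; the *Ldha* window with 5 matches stands beside 8 windows with none.

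Over all windows (250 bases before to 50 after the start), ACGTG was found in 8 of 16 windows of the enzyme genes and in 7 of the 10 genes. The genes without it were *Gpi1*, *Tpi1* and *Eno1*. Among lower genes with a window, 31.8% of 2329 genes held it, and among all genes with a window 21.8% of 27025. By window rather than by gene, the shares were 26.9% for the lower genes and 19.6% for all genes. The enzyme genes listed as lower held it in 5 of 7 cases and the genes in neither table in 2 of 3, and thus occurred in both. In the shorter window from 100 bases before the start, 4 of the 10 genes held the core, against 19.5% of the lower genes. With GCGTG also allowed, 8 of the 10 genes had a match, against 70.4% of the lower genes. CACGTG occurred in 1 of the 10 genes, *Ldha*, and in 12.3% of the lower genes. The windows of the enzyme genes had a median GC content of 65.0% and a median of 23.5 CG dinucleotides, close to the 62.3% and 23.0 of the lower genes, whereas all windows had a median GC content of 52.7% and a median of 7 CG dinucleotides. Of the 3 *Aldoa* windows, 2 overlap, so 1 match was counted in 2 windows. A match is a match of letters only, and HIF-1 binding was not measured.

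Along the pathway, 7 of the 10 steps from glucose to pyruvate had at least 1 gene listed as lower. A step was counted if any of its genes was listed. Of all 27 genes of these steps and of lactate dehydrogenase, 8 were lower and 19 in neither table, against 13.2% of protein-coding genes listed as lower. The first step, which traps glucose in the cell as glucose 6-phosphate, was represented by hexokinase 1 (*Hk1*), which is not 1 of the 10 genes, whereas *Hk2*, the inducible hexokinase, was absent from both tables. *Hk1* had an average log2 CPM of 7.03, or 131 CPM. *Gpi1*, whose product converts glucose 6-phosphate to fructose 6-phosphate, had an average log2 CPM of 7.57. The next step, phosphofructokinase, the main point of control of the pathway, had 0 of its 3 genes (*Pfkl*, *Pfkp* and *Pfkm*) in either table. *Aldoa*, the aldolase that cleaves the 6-carbon sugar, had an average log2 CPM of 7.48. *Tpi1*, which interconverts the resulting triose phosphates, was absent.

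The second phase of glycolysis, in which ATP is gained, held most of the listed genes. *Gapdh*, which makes NADH, had the highest level of all with an average log2 CPM of 7.90. *Pgk1*, the first enzyme that yields ATP, had the lowest of the listed levels, 6.00, and lies on the X chromosome. *Pgam1*, the mutase of the following step, was absent. *Eno1*, the enolase, had an average log2 CPM of 6.67. *Pkm*, whose product makes pyruvate and a further ATP, had an average log2 CPM of 7.47, which was counted over the whole gene and does not separate its M1 and M2 isoforms. *Ldha*, which makes lactate, had an average log2 CPM of 7.63.

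In CPM, *Gapdh* stood at 239, *Ldha* at 198, *Gpi1* at 189, *Aldoa* at 178, *Pkm* at 177, *Eno1* at 102 and *Pgk1* at 63.9. The first 5 of these lay within 0.43 of each other on the log2 scale, and *Eno1* and *Pgk1* stood below them. From *Gapdh* to *Pgk1* the difference was 3.74-fold. Whether neighbours in this order differ beyond the spread between libraries was not tested, since no spread is given. Among the 2906 lower genes, *Gapdh* ranked 289, *Ldha* 392, *Gpi1* 423, *Aldoa* 461, *Pkm* 465, *Eno1* 1137 and *Pgk1* 1943. Thus 6 of the 7 were above the median of the table, which was 6.39 against 7.48 for the enzyme genes, and 5 were above its upper quartile of 7.11. *Pgk1* was higher than 33.1% of the lower genes. The 7 genes summed to 1148 CPM, which is 0.115% of all reads on this scale and 0.299% of the summed average of the lower genes, of which they are 0.241% by number.

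**Figure D2:**
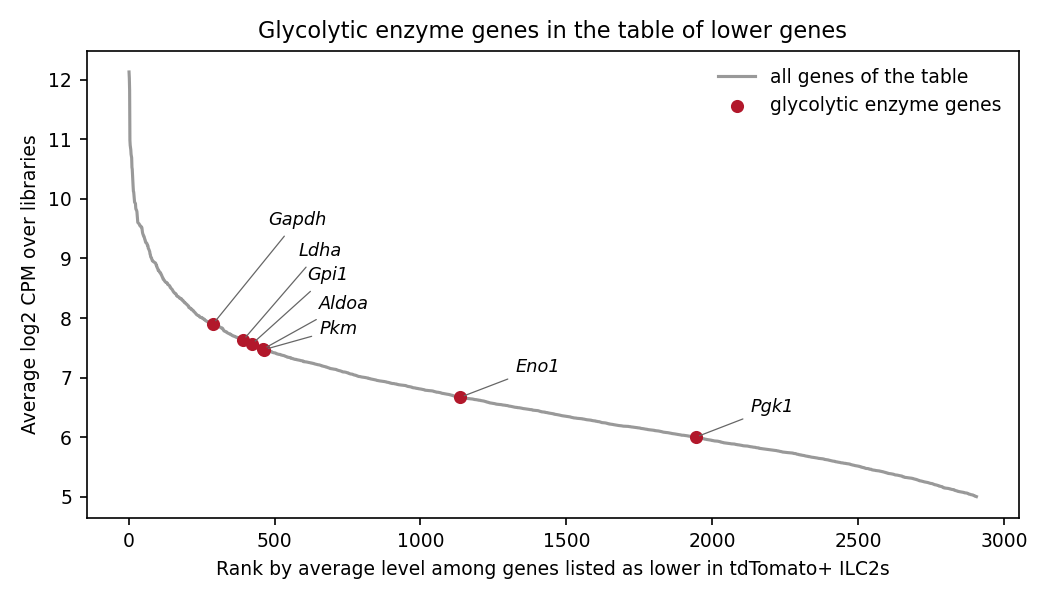
Average log2 CPM over libraries (vertical axis) of the 2906 genes listed as lower in tdTomato+ ILC2s against their rank (horizontal axis), with the 7 listed glycolytic enzyme genes as red points. The 5 genes from *Gapdh* (7.90) to *Pkm* (7.47) sit close together on the upper part of the curve, and *Eno1* (6.67) and *Pgk1* (6.00) further down.

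Longer transcripts yield more fragments, so the levels were also set per kb of coding sequence. *Gapdh* remained highest at 239 CPM per kb, followed by *Ldha* at 199, *Aldoa* at 163, *Gpi1* at 113, *Pkm* at 111, *Eno1* at 78.2 and *Pgk1* at 51.1. On this scale *Aldoa*, with 1092 coding bases, moved above *Gpi1* with 1674. The median over the 7 genes was 113 CPM per kb, against 52.2 over the lower genes, and *Pgk1* alone was below the latter. With the length of all annotated exons in place of the coding length, the median of the enzyme genes was 35.5 CPM per kb. *Aldoa*, *Ldha* and *Gapdh* then stood at 61.3, 59.8 and 57.8, so that *Gapdh* was no longer first. No median of the lower genes is given per kb of exon, so the enzyme genes are compared with them by coding length only. *Gapdh* has 4133 bases of annotated exon but only 999 of coding sequence.

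**Figure D3:**
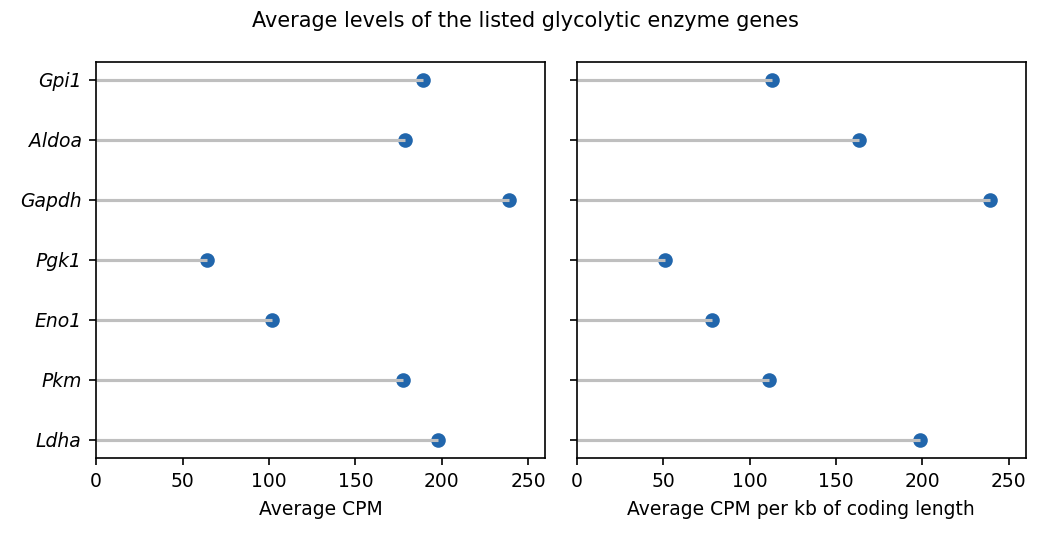
Average level of the 7 listed glycolytic enzyme genes in order of the pathway, in CPM (left) and in CPM per kb of coding length (right), both axes starting at 0. Each point is 1 average over libraries with no error; *Gapdh* is highest and *Pgk1* lowest on both scales (239 and 63.9 CPM, 239 and 51.1 CPM per kb).

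As a guide to these levels, the lower gene with the nearest average log2 CPM was *Eif3c*, a translation initiation factor, for *Gapdh*, and *Acin1* for *Ldha*. It was *Srrm1*, a splicing factor, for *Gpi1*, *Fermt3* for *Aldoa* and *Anp32a* for *Pkm*. For *Eno1* it was *Zfr*, and for *Pgk1* it was *Rfwd3*. Each lay within 0.0036 of the enzyme gene on the log2 scale. This compares 1 average per gene and says nothing of a shared pattern over libraries.

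The 10 genes lie on 6 chromosomes, and their positions are given in GRCm38 from GENCODE M21, whereas the study's methods name GRCm39 for the RNA reads and the labels of all samples name mm10, which is GRCm38. *Gpi1* (34201330 to 34230336), *Ldha* (46841475 to 46855627) and *Aldoa* (126795234 to 126800751) lie on chromosome 7. *Hk2* (82725025 to 82774454), *Tpi1* (124810586 to 124814296) and *Gapdh* (125161715 to 125166467) lie on chromosome 6, with 1 of these 3 listed as lower. *Eno1* lies on chromosome 4 (150236721 to 150248879), *Pkm* on chromosome 9 (59656368 to 59679375), *Pgam1* on chromosome 19 (41911923 to 41918660) and *Pgk1* on the X chromosome (106187100 to 106203699). Their coding sequences run from 762 bases (*Pgam1*) to 2751 bases (*Hk2*), with a median of 1509 among the lower genes. Exons of *Gpi1*, *Aldoa*, *Tpi1* and *Gapdh* overlap exons of a gene on the other strand by 741, 25, 34 and 68 bases. For *Gpi1* this is the non-coding gene *Gm26762*, and the use of strand in counting is not given in the sources used here. *Pkm* overlaps *Gm49759* on the same strand by 767 bases.

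Enzymes of this pathway have many processed copies in the mouse genome, and reads from such copies can be divided or dropped in counting. Coding sequences were therefore compared with all annotated transcripts, and a copy was counted where another gene shared at least 150 bases at 95% identity or more. Of the 10 genes, 8 had at least 1 copy, against 21.6% of the lower genes. *Gapdh* had 80, of which 76 were pseudogenes, and 1.45% of the lower genes had 10 or more. *Pgk1* and *Ldha* had 4 copies each, *Eno1* 3, *Pkm* 2, and *Gpi1*, *Tpi1* and *Pgam1* 1 each, whereas *Hk2* and *Aldoa* had 0. Of the 2 counted for *Pkm*, *Gm49759* is not a separate copy elsewhere, since it overlaps *Pkm* itself on the same strand. The 3 genes in neither table thus had 0 or 1 copies and the 7 lower genes 0 to 80.

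**Figure D4:**
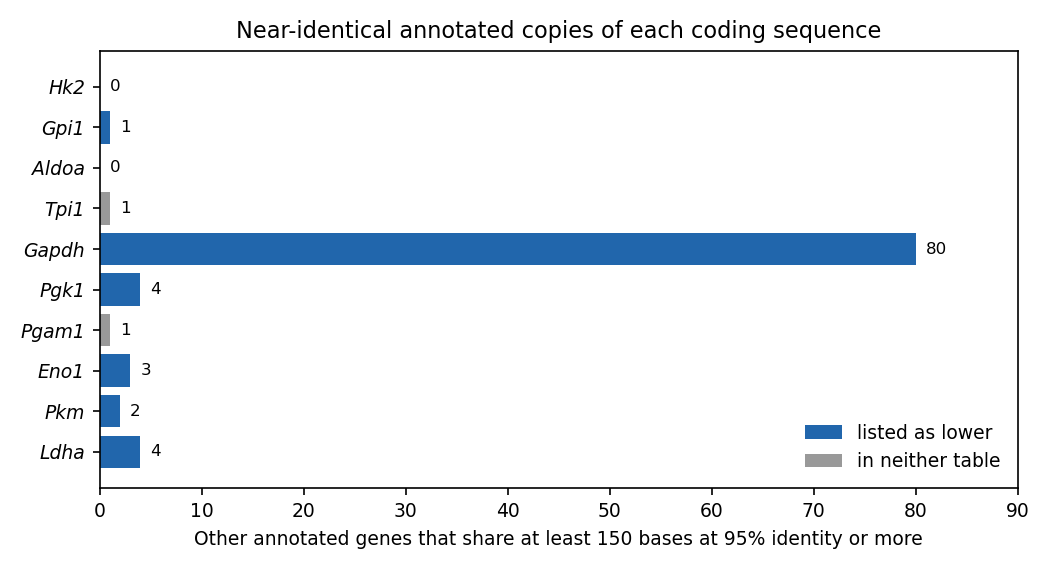
Number of other annotated genes that share at least 150 bases at 95% identity or more with the coding sequence of each of the 10 glycolytic enzyme genes, in order of the pathway. Bars are blue for genes listed as lower and grey for genes in neither table; *Gapdh* has 80 copies and no other gene more than 4.

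*Eno1b* matched *Eno1* over all 1302 coding bases at 99.4% identity, and the *Pgk1* copy *Gm5537* matched over all 1251 bases at 100% identity. *Pgam1-ps2* matched *Pgam1* over all 762 bases, also at 100% identity. None of these 3 copies was in either table. The values of *Gapdh*, *Eno1* and *Pgk1* in particular are therefore uncertain, and the absence of *Pgam1* is open to the same doubt. The part of such copies in the listing was not tested. Of all 96 copies of the 10 genes, 0 were among the lower genes and 1 was among the higher genes. The latter was *Vmn2r60*, a vomeronasal receptor gene on chromosome 7, whose annotated transcript shares 800 bases with the coding sequence of *Gapdh* at 98.3% identity. *Vmn2r60* had an average log2 CPM of 5.50, rank 26 among the 53 vomeronasal receptor genes of the higher table (median 5.48). All 53 were called higher and had at least 5.00. The part of *Gapdh* reads in the level of *Vmn2r60* was not tested. Apart from *Eno1b*, the isoenzymes compared were less alike, with a coding identity over aligned bases of 71.6% between *Hk2* and *Hk1*, 73.0% between *Ldha* and *Ldhb*, 75.9% between *Aldoa* and *Aldoc*, and 79.3% between *Pgk1* and *Pgk2*.

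The other isoenzymes were almost all absent from the tables. Of 18 such genes, 1 was listed as lower, which was *Hk1*, and 0 as higher. Absent were *Hk3*, *Hkdc1*, *Pfkl*, *Pfkp*, *Pfkm*, *Aldoc*, *Gapdhs*, *Pgk2*, *Pgam2*, *Eno1b*, *Eno2*, *Eno3*, *Eno4*, *Pklr*, *Ldhb*, *Ldhc* and *Bpgm*. Most of these are forms of other tissues, such as brain, liver, muscle or testis. *Ldhb*, the other common subunit of lactate dehydrogenase, and the phosphofructokinase genes are widely expressed, and their direction is not known from the tables.

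Genes that carry glucose and lactate across the membrane were listed in both directions. *Slc2a3*, which encodes the glucose transporter GLUT3, was among the lower genes with an average log2 CPM of 5.94, and so was *Bsg*, the chaperone of lactate transporters, with 6.37. *Slc16a7*, the monocarboxylate transporter MCT2, was among the higher genes with an average log2 CPM of 5.72. *Slc2a1*, *Slc2a6*, *Slc2a8*, *Slc2a9*, *Slc16a1* and *Slc16a3* were in neither table.

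Of 15 regulators, 4 were listed as lower and 0 as higher. *Hif1a*, the oxygen-regulated subunit of HIF-1, had an average log2 CPM of 7.34, and *Myc* had 5.15. Per kb of coding sequence *Hif1a* stood at 64.7 CPM, against a median of 113 for the enzyme genes. *Txnip*, which restrains glucose uptake, and *Mlxip*, a glucose-sensing transcription factor, had 7.87 and 6.96. *Txnip* and *Hif1a* were thus listed in the same direction although the first limits and the second promotes glycolysis. The bifunctional enzymes that set the level of fructose 2,6-bisphosphate (*Pfkfb1* to *Pfkfb4*) and *Arnt*, *Vhl*, *Egln1*, *Egln2*, *Egln3*, *Tigar* and *Adpgk* were in neither table.

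Downstream of pyruvate, 3 of 12 genes of pyruvate entry into mitochondria were listed as lower. They were *Pdha1* (average log2 CPM 6.45) and *Pdhb* (5.44), subunits of the first enzyme of the pyruvate dehydrogenase complex, and *Dld* (5.85), which is shared with the 2-oxoglutarate dehydrogenase complex. The kinases that inhibit this complex, *Pdk1* to *Pdk4*, were absent, as were *Mpc1*, *Mpc2*, *Dlat*, *Pdhx* and *Pdp1*. Of 15 genes of the TCA cycle, 8 were listed as lower, or 53.3%, the share nearest to the 70.0% of the glycolytic enzymes. *Ogdh* (7.05), *Sdha* (6.87) and *Mdh2* (6.42) had the highest levels among them, and *Cs*, *Idh3a*, *Idh3b*, *Dlst* and *Sdhb* lay between 5.45 and 6.17. The median of the TCA cycle genes was 6.16, below the 7.48 of the glycolytic enzyme genes. *Idh3g*, *Suclg1*, *Suclg2*, *Sucla2*, *Sdhc*, *Sdhd* and *Fh1* were in neither table.

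Branches of the pathway were listed in part. In the pentose phosphate pathway, which makes NADPH and ribose, *Tkt* (6.61), *Taldo1* (5.94) and *H6pd* (5.68) were lower, 3 of 8 genes. The genes of its cytosolic oxidative arm, *G6pdx*, *Pgls* and *Pgd*, were absent, as were *Rpia* and *Rpe*. Of the shuttles that carry NADH electrons into mitochondria, *Mdh1* (6.29) and *Got2* (5.78) were lower, and *Got1*, *Gpd1* and *Gpd2* were absent. Of 7 genes of glycogen metabolism, *Pygb* (5.78) and *Ugp2* (5.74) were lower, and *Gys1*, *Pygl*, *Pgm1*, *Pgm2* and *Gbe1* were absent. In the serine branch, *Shmt2* was lower, with an average log2 CPM of 5.01 just above the lowest level of the table, and *Phgdh*, *Psat1* and *Psph* were absent. Of the gluconeogenic genes *Fbp1*, *Fbp2*, *Pck1*, *Pck2*, *Pcx* and *G6pc3*, 0 were in either table.

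**Figure D5:**
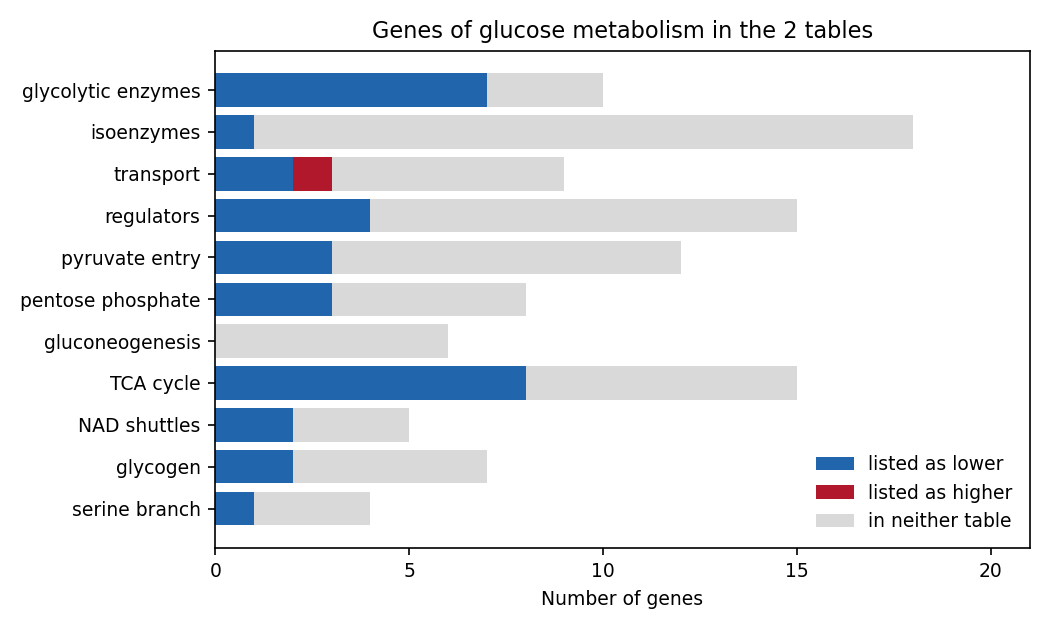
Number of genes of each list of glucose metabolism that were listed as lower (blue), listed as higher (red) or in neither table (grey). The glycolytic enzymes (7 of 10) and the TCA cycle (8 of 15) have more lower genes than absent genes, and *Slc16a7* under transport is the only higher gene.

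Over these 10 further lists, 26 of 99 genes were listed as lower (26.3%) and 1 as higher, compared with 7 and 0 of the 10 enzyme genes and with the 13.2% and 2.31% of all protein-coding genes. The annotation includes genes of any level, whereas the listed genes begin at an average log2 CPM of 5.00, and a difference between these shares was not tested.

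The tables can show only whether a marker of these or other cells was called different, so the labelled cell type could not be checked from them. All 12 ILC2 markers (*Gata3*, *Il7r*, *Il1rl1*, *Il2ra*, *Id2*, *Rora*, *Klrg1*, *Thy1*, *Icos*, *Areg*, *Il5* and *Il13*) were among the lower genes, with a median average log2 CPM of 8.14. They ranged from 6.27 for *Il13* to 9.98 for *Il1rl1*, the receptor for IL-33, and 7.48, the median of the enzyme genes, lies inside this range. Per kb of coding sequence the markers ranged from 157 CPM for *Klrg1* to 922 for *Id2*. On that scale the median of the enzyme genes, 113, lies below all 12 markers. Of 34 markers of T, NK and B cells, macrophages, neutrophils, epithelium, endothelium and erythroid cells, 1 was listed as lower and 0 as higher, against 13.2% and 2.31% of all protein-coding genes. This was *Cd3g*, with an average log2 CPM of 6.12, whereas *Cd3e*, *Cd3d*, *Cd4*, *Cd8a*, *Cd5* and *Trac* were in neither table. The levels of the markers in neither table are not given there, so their absence does not show that such cells were absent. From its own values, the paper reports that lineage markers were very low in the RNA samples, with no statistical difference between them. Its text does not name these markers. In its flow cytometry the paper gates lung ILC2s as CD45+Lin-CD127+CD25+ST2+ cells. The part of other cells in the levels of the enzyme genes was not tested.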

How the data were processed

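ILC2s were sorted as tdTomato- and tdTomato+ cells, and RNA libraries were made with a SMART-Seq stranded low-input kit. According to the study's methods, the authors checked reads with FASTP, aligned them with STAR to GRCm39, assigned them to genes of Ensembl release 104 with featureCounts and compared the populations in edgeR. The labels of all samples, RNA and ATAC-seq alike, instead name the build mm10, which the methods give for ATAC-seq, and the tables hold no coordinates to settle the build of the counts. The versions of these tools are not given in the sources used here. The deposited tables hold 1 average log2 CPM per gene over the libraries of the authors' fit. They also hold the log2 fold change, likelihood ratio, p-value and FDR of the authors' comparison, none of which was used or printed. The tables hold 0 columns for single samples.

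The tests that had been set out for values per library were not run, because the tables hold none, so only counts, levels and ranks are given. The members and lists were chosen with earlier results of these data known. A few genes of the lists are not reported here and were left out of the counts. Genes named are the 10 enzymes, the genes of the lists and the lower gene nearest in level to each enzyme; *Gm26762*, *Gm49759*, *Gm5537*, *Pgam1-ps2* and *Vmn2r60* were named after their values were seen. Positions, coding length (principal transcript) and exon length were taken from GENCODE M21 on GRCm38 by Ensembl identifier, which matched 2905 of 2906 lower and 531 of 533 higher genes. Promoters were taken from RefSeq (GRCm38.p6) by symbol, which matched 10 of 10 enzyme genes and 2329 of 2906 lower genes. Copies were searched with BLAST 2.17.0 (megablast). No protein table was used here, so identity was computed on coding bases. Analyses ran in Python 3.11.15 with pandas 2.3.3 and Biopython 1.88, and the motif scan and ranks were tested on simulated data. Alternatives were another match of genes, stricter levels, another background, another length, other promoter windows and motifs, and, chosen after seeing the data, a longer alignment for copies. Depth per library is unknown, so no interval is given.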

Additional observations from a re-analysis of the deposited data

How the results depend on the processing

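No paired analysis was possible because the tables hold no columns of single libraries, and for the same reason no replicate could be left out and no other pseudocount or filter on libraries could be tried. Of the 10 enzyme genes, 7 were also found as lower by gene identifier, and 6 with an average log2 CPM over 6, which leaves out *Pgk1*. With an average log2 CPM over 8 the count was 0, since *Gapdh*, the highest, stands at 7.90. Against all annotated genes rather than protein-coding genes, the share listed as lower was 5.24%. The median log2 level was 7.48 without *Gapdh* and 7.52 without *Pgk1*. The median per kb was 35.5 CPM with exon length instead of 113 with coding length, which follows from the longer length. The median rank of the enzyme genes was 461 in the lower table, 477 in both tables and 564 per kb. ACGTG was found in 4 genes with the shorter window and in 8 with GCGTG allowed. Alignments of at least 300 bases left 92 of 96 copies.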
